A study of Mus musculus with 8 samples.

Results

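Endo is the class name the authors gave to 338 of the 77393 cells they recovered from whole mouse kidney, and these cells are described here as the endothelial class of that name. They were taken by that name alone in the deposited cell table, which holds 28 classes, and the 1154 cells of a further class, GEC, were not counted among them. The GEC name is not spelled out in the files, and it is set beside Endo as the only other class placed in endothelium by its name. The libraries came from C57BL/6 mice of 7 weeks and were 10x Genomics Chromium single-cell 3′ libraries of adult kidney. UUO samples (n = 2) were taken on day 7 after unilateral ureteric obstruction, in which the left ureter is tied, and Control samples (n = 6) carry the disease label control. The treatment text of the Control samples is the same as that of the UUO samples, and does not say which steps the Control animals went through.

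Endothelial cells line the blood vessels and control what passes between blood and tissue. In the kidney they form the glomerular tuft, the fenestrated capillaries around the tubules, and the larger arteries and veins, and thinning of the capillaries around the tubules is a known feature of fibrosing kidneys. Pecam1, an adhesion molecule of endothelial cell junctions, marks the lineage, and Plvap builds the diaphragms of fenestrated capillaries. The deposited tables used here give no value for single genes, so neither marker could be measured and the class name could not be checked against them.

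Endo cells numbered 16 and 40 in UUO 1 and 2, against 60, 89, 15, 24, 27 and 67 in Controls 1 to 6. These came from libraries of 12930 to 18393 cells in UUO and 2263 to 16168 cells in Control. Controls 3 and 4 did not differ in their numbers of cells per class at a chi-square p under 0.05 (p = 0.0509) and were counted as 1 sample, which left 5 Control samples. A p this near the threshold does not show that the 2 libraries are alike. Lists of 5 Control values below run in the order Control 1, Control 2, Controls 3 and 4 together, Control 5 and Control 6. Controls 3 and 4 held Endo at 0.663% and 0.608% of their cells (two-sided Fisher's exact p = 0.868). No Endo cell shared its barcode with another Endo cell, and 28 Endo barcodes also occurred in another library on a cell with different UMIs or genes. The labels do not tie samples to separate animals, and the spread that the p-values rest on may therefore be technical.

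Controls 1 and 2 stood apart from the other Control libraries in their endothelium. Their Endo shares were the highest, at 1.67% and 1.38% of all cells against 0.167% to 0.663% in Controls 3 to 6, and they held 0.594 and 0.556 Endo cells per GEC cell against 0.124 to 0.255. Their GEC cells also lay lower in the embedding, with median UMAP_2 values of -6.48 and -6.47 against -5.92 to -6.05. Differences between the groups are therefore given with and without these 2 libraries. They were picked after seeing these values, so leaving them out must shrink the share differences and raise the Endo to GEC ratio difference. Their Endo to GEC ratios of UMIs and genes were also the highest, so those differences must shrink too. The direction of these changes is thus no independent check.

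The first comparison asked how much of the kidney's cells the Endo class made up after obstruction. Endo cells were 0.0870% (exact 95% binomial interval 0.0497 to 0.141) of UUO 1 and 0.309% (0.221 to 0.421) of UUO 2. Controls 1 and 2 held 1.67% (1.27 to 2.14) and 1.38% (1.11 to 1.70), Controls 3 and 4 together held 0.628% (0.447 to 0.857), and Controls 5 and 6 held 0.167% (0.110 to 0.243) and 0.491% (0.380 to 0.623). These are shares of the cells recovered, and the intervals cover counting error only. UUO 1 was the lowest of all libraries, but UUO 2 lay above Control 5, so the groups overlapped. The means were 0.198% ± 0.157 (SD, n = 2) in UUO and 0.867% ± 0.632 (SD, n = 5) in Control.

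**Figure D1:**
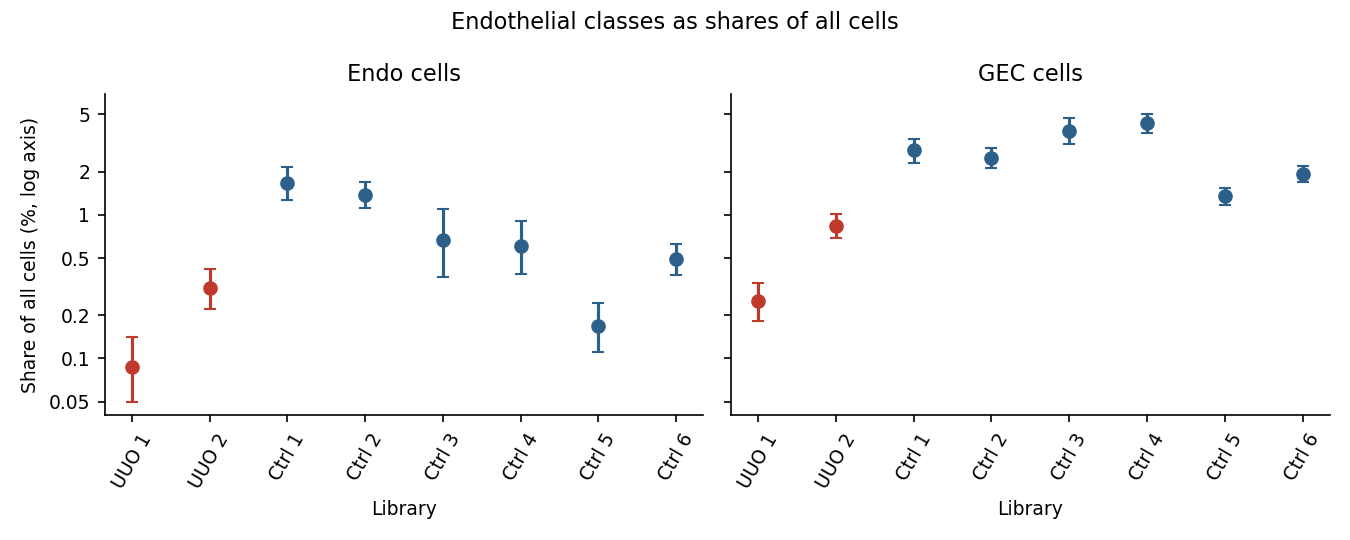
Share of all cells (%, log axis) in the Endo class (left) and the GEC class (right) for each library, UUO in red and Control in blue, with exact 95% binomial intervals. Endo shares of UUO 2 (0.309%) and Control 5 (0.167%) overlap the other group, whereas GEC shares of both UUO libraries (0.250% and 0.835%) lie below the lowest Control value (1.34%).

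On the log2 odds scale the Endo share was lower in UUO by a difference of -1.99 (95% interval -3.65 to -0.32, limma adjusted p 0.0395 over 28 classes), an odds ratio of 0.252. Limma called 28.6% of the classes lower in UUO, so a lower share was not rare among classes, and Endo had the eighth lowest difference. The two-sided exact permutation p for Endo alone was 0.143, where 2 samples against 5 can reach 0.0476. The limma call was lost without UUO 1 (-1.08, adjusted p 0.438), without Controls 1 and 2 (-1.17, adjusted p 0.308), and without Control 1, Control 2 or Control 6 alone (-1.65, -1.72 and -2.09, adjusted p 0.114, 0.115 and 0.0515). Without UUO 2 it was -2.89 (adjusted p 0.0492). The libraries over 10000 cells gave -0.79 (limma adjusted p 0.447). In edgeR fitted to the cell numbers (quasi-likelihood), sample totals gave -2.12 (adjusted p 0.0886), and TMM scaling gave -2.55 and passed (adjusted p 0.0380).

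Because shares of all cells fall in every class when another expands, the Endo share was also taken in narrower sets of cells. Outside the proximal tubule class PT, the largest of all classes, Endo cells made up 0.420% and 0.825% of UUO 1 and 2. In Control samples they made up 3.79%, 4.65%, 1.14%, 0.454% and 1.82%. The log2 odds difference was -1.59 (95% interval -3.44 to 0.27, limma adjusted p 0.119 over 27 classes), and limma called 25.9% of these classes lower. The same difference without Controls 1 and 2 was -0.73 (adjusted p 0.416), and without Control 5 it was -2.08 and passed (adjusted p 0.0137).

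Among non-immune cells, from which the incoming leukocytes are left out, Endo made up 0.105% and 0.434% in UUO. The Control samples held 1.82%, 1.45%, 0.719%, 0.176% and 0.517%. Endo thus had a log2 odds difference of -1.71 (95% interval -3.31 to -0.12), which did not pass after adjustment (limma adjusted p 0.0517 over 13 classes). Of the non-immune classes 53.8% were called lower, and Endo without Controls 1 and 2 had -0.91 (adjusted p 0.403). It passed without Control 5 (-2.21, adjusted p 0.0110) and without UUO 2 (-2.72, adjusted p 0.00508). With centred log-ratios, which set each class against the mean log number of all classes in the set, the sign turned (0.029).

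GEC cells were compared with Endo cells within each sample, which takes out everything that changes both alike. There were 0.348 and 0.370 Endo cells per GEC cell in UUO 1 and 2, against 0.594, 0.556, 0.151, 0.124 and 0.255 in the Control samples. Both UUO values lay inside the Control range, between Controls 1 and 2 and the rest. Endo therefore made up 25.8% (exact 95% interval 15.5 to 38.5) and 27.0% (20.1 to 34.9) of the cells of both classes in UUO 1 and 2, and 11.1% to 37.3% in the Control samples. The log2 difference in the ratio was 0.39 (two-sided exact permutation p = 0.714), and 1.10 without Controls 1 and 2 (p = 0.2, where 0.1 is the smallest possible). A test of whether the 2 classes differed unequally between the groups thus found no difference beyond the spread. Its p does not show that their numbers differed alike, or that Endo cells were reduced.

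The second comparison was of the transcript content of single Endo cells, as UMIs (unique transcript molecules) per cell. Endo was the class with the lowest median UMIs of the 28, at 1055 over all 338 cells (quartiles 744 and 1655), with GEC next at 1220. Within a library, among classes of at least 10 cells, Endo had the lowest median in UUO 1 and 2 and Controls 5 and 6, and ranked between 2 and 5 from the bottom in the others. The smallest cell of any class held about 500 UMIs in most libraries (375 to 506), and cells below these are not in the table. The Endo median of UUO 1 (614) stood close to the lowest value kept, and those of the other libraries ran from 892 to 1268.

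Endo medians were 614 UMIs in UUO 1 and 1016 in UUO 2. The Control samples had 1014, 1180, 952, 1268 and 1004 UMIs, with 892 and 1019 in Controls 3 and 4 taken apart. UUO 1 was below every Control sample, and UUO 2 lay among them. The log2 difference was -0.45 (95% interval -1.06 to 0.17, limma adjusted p 0.280), 0.733-fold, and it was not past the threshold. It rested on the 16 cells of UUO 1: without that library it was -0.09 (adjusted p 0.879). Without Controls 1 and 2 it was -0.43 (adjusted p 0.524).

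Against this, 23 of the 26 classes that could be fitted had higher UMIs in UUO, with a median of 1.37-fold, and limma called 15.4% of them higher. Endo had the lowest difference of the 26, and the other classes below zero were B-IC (-0.11) and CD8 effector (-0.0038), both chosen after their values were seen. GEC stood at 1.32-fold (95% interval 0.861 to 2.02, adjusted p 0.319). Limma called 0% of the classes lower, with 0 classes lower at an unadjusted p under 0.05 and 0 by the exact permutation test.

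**Figure D2:**
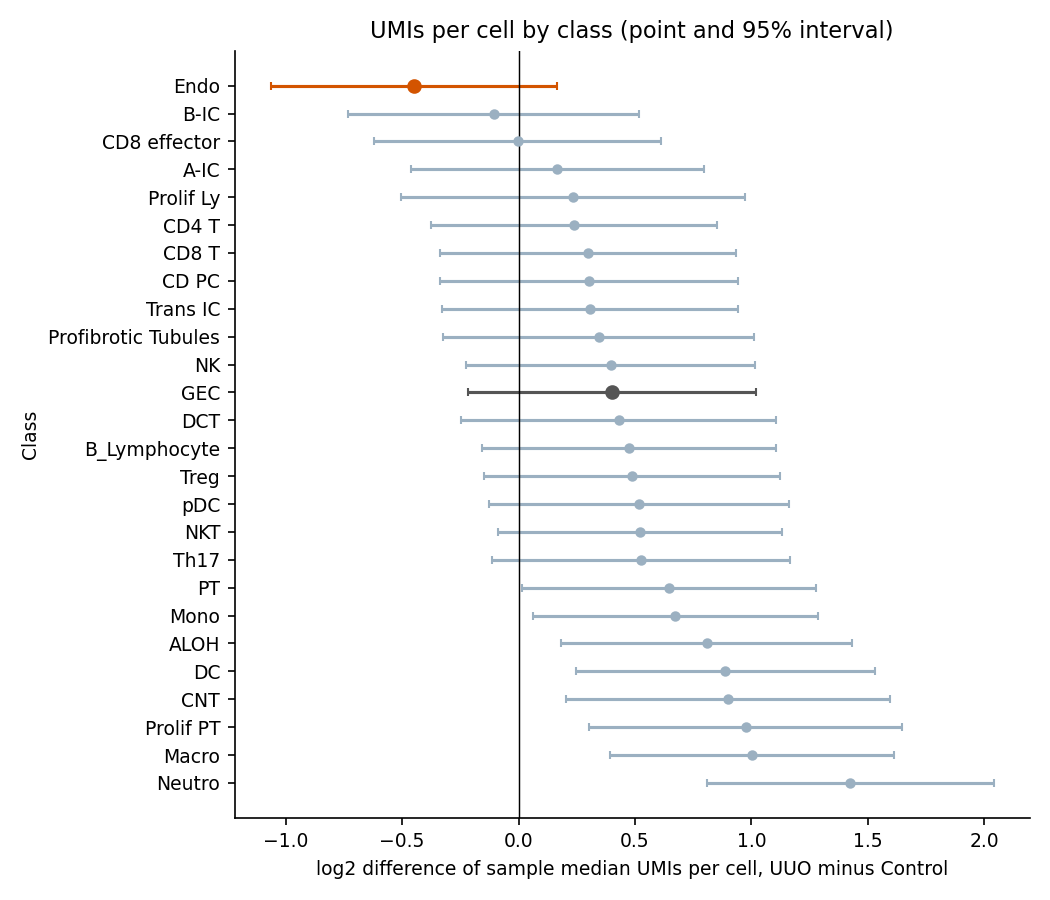
UUO minus Control log2 difference of sample median UMIs per cell for the 26 classes fitted (10 cells or more in 2 or more samples per group), with limma 95% intervals, Endo in orange and GEC in dark grey. Endo has the lowest point at -0.45, with an interval that includes 0, and GEC lies at 0.40.

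The ratio of Endo to GEC UMIs within a sample was lower in UUO than in Control, and both classes enter it. GEC medians were 1318 and 1687 UMIs in UUO 1 and 2, and 897 to 1484 in the Control samples. The ratio of the Endo median to the GEC median was 0.466 and 0.602 in UUO 1 and 2. It was 1.13, 1.26, 0.743, 0.854 and 0.873 in the Control samples. The groups did not overlap as counted, with means of 0.534 ± 0.0961 (SD, n = 2) in UUO and 0.972 ± 0.215 (SD, n = 5) in Control. The log2 difference was -0.85, a 1.80-fold lower ratio, at the smallest two-sided exact permutation p the design allows (0.0476). Taken singly, Endo differed by -0.45 and GEC by 0.40, so the ratio does not measure Endo cells alone. The Benjamini-Hochberg value was 0.119 over the 5 measures whose main test was the exact one. It does not pass 0.05, so the difference is reported as not passing the correction. Exact tests run beside the limma fits were left out of this adjustment. The gene and mitochondrial measures relative to GEC, which are in it, were added after seeing the data.

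Taken apart, Control 3 had a ratio of 0.590 from 15 Endo cells, just below UUO 2, and with 8 separate samples the exact p was 0.107 (-0.78). Without Control 4, which leaves Control 3 alone, it was 0.143 (-0.78). Without Controls 1 and 2 the difference was -0.63 at the smallest p possible there (0.1). Set against all other cells of the sample in place of GEC, it was -1.01 (exact p = 0.0476, unadjusted). By limma over 26 classes, Endo UMIs relative to all cells of the sample differed by -1.02 and did not pass (adjusted p 0.175). Against GEC, the libraries over 10000 cells alone gave -0.71. The median over all cells was 2496 and 2584 UMIs in UUO and 1292 to 2944 in the Control libraries. The Endo median was 0.246 and 0.393 of the all-cell median in UUO 1 and 2, and between 0.431 (Control 5) and 0.785 of it in the Control samples.

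**Figure D3:**
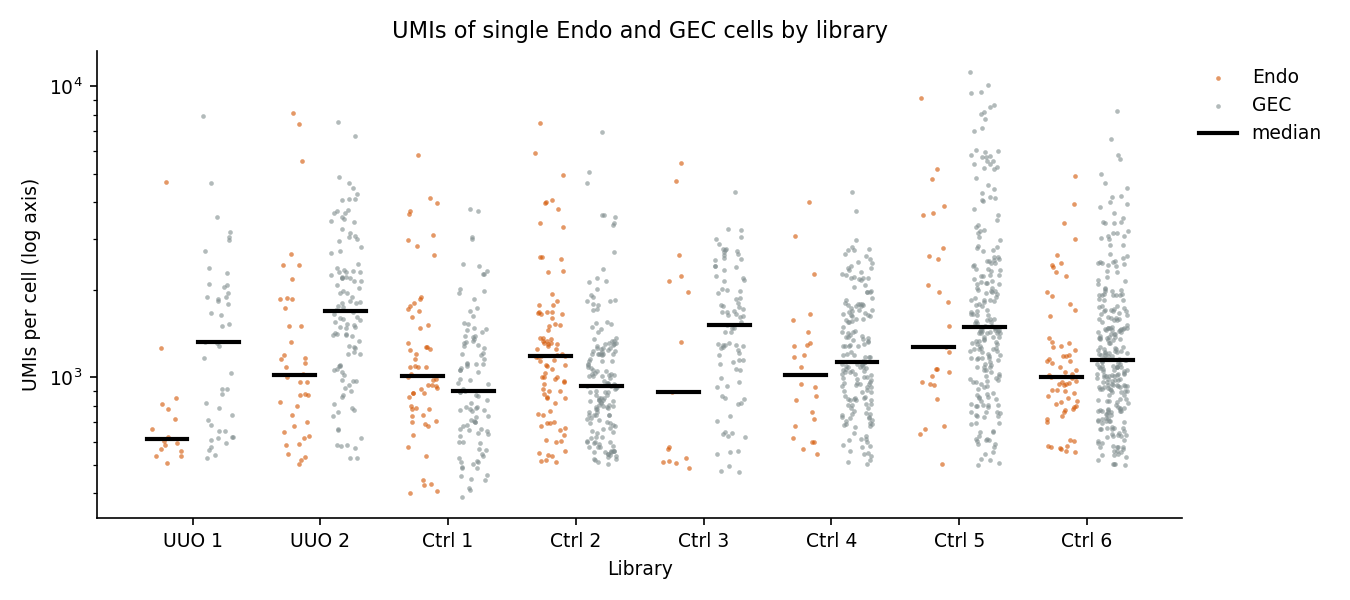
UMIs per cell (log axis) of every Endo cell (orange) and GEC cell (grey) in each library, with medians as black bars. The Endo median lies below the GEC median in both UUO libraries and in Controls 3 to 6, and above it in Controls 1 and 2.

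Most Endo cells of UUO 1 were low in UMIs. Endo cells under 1000 UMIs were 14 of 16 in UUO 1 (87.5%, exact 95% interval 61.7 to 98.4) and 19 of 40 in UUO 2 (47.5%, 31.5 to 63.9). In the Control samples they were 29 of 60, 33 of 89, 20 of 39, 8 of 27 and 33 of 67, or 29.6% to 51.3%. UUO 1 was above every Control sample and UUO 2 inside their range. GEC cells under 1000 UMIs were 41.3% and 20.4% in UUO 1 and 2, and 24.9% to 55.4% in the Control samples.

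The size of the difference in Endo share depended on this limit. Endo cells of at least 1000 UMIs numbered 2 in UUO 1 and 21 in UUO 2, or 0.0109% and 0.162% of all cells, and in the Control samples they made up 0.861%, 0.871%, 0.306%, 0.118% and 0.249%. With only cells of at least 1000 UMIs kept in every class, the log2 odds difference in the Endo share was -3.35 (limma adjusted p 0.00564) in place of -1.99. The Endo to GEC ratio then had the other sign (-0.86, exact permutation p = 0.476).

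High-UMI Endo cells were present in both groups. Pooled over libraries, cells over 4000 UMIs were 4 of 56 (7.14%) in UUO and 13 of 282 (4.61%) in Control, up to 8128 and 9118 UMIs. By sample, cells of at least 2000 UMIs were 1 of 16 and 7 of 40 in UUO 1 and 2. In the Control samples they were 9 of 60, 14 of 89, 8 of 39, 10 of 27 and 10 of 67. All 17 cells over 4000 UMIs had Endo as the most frequent class among their 15 nearest neighbours in the embedding. PT cells have no coordinates and could not appear among these neighbours. Doublets were left as the authors left them.

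Genes detected per cell followed the UMIs closely (Spearman rho 0.97 across the 338 Endo cells, a description over cells that share libraries). Endo cells had median gene numbers of 424 and 630 in UUO 1 and 2, against 626, 722, 697, 738 and 598 in the Control samples. UUO 1 was below all of them. The log2 difference was -0.38 (95% interval -0.85 to 0.08, limma adjusted p 0.224), again the lowest of 26 classes, of which limma called 19.2% higher. Without Controls 1 and 2 it was -0.39 (adjusted p 0.494), and without UUO 1 it was -0.10 (adjusted p 0.804). Relative to GEC, Endo genes were 0.561 and 0.646 in UUO and 0.836 to 1.12 in the Control samples, without overlap (log2 difference -0.63, exact permutation p = 0.0476, adjusted 0.119). Without Controls 1 and 2 this difference was -0.50 (exact p = 0.1, the smallest possible there). This ratio was chosen after its values were seen and is not independent of the UMI ratio. GEC gene numbers enter it too, with a log2 difference of 0.25 (limma adjusted p 0.395).

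Gene numbers were also taken at a matched number of UMIs. Endo cells of 1000 to 2000 UMIs had a median of 737 genes in UUO 2 (14 cells), within the 675 to 840 of the Control samples (9 to 42 cells). UUO 1 had 1 such cell and gave no value, so this holds for UUO 2 alone.

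**Figure D4:**
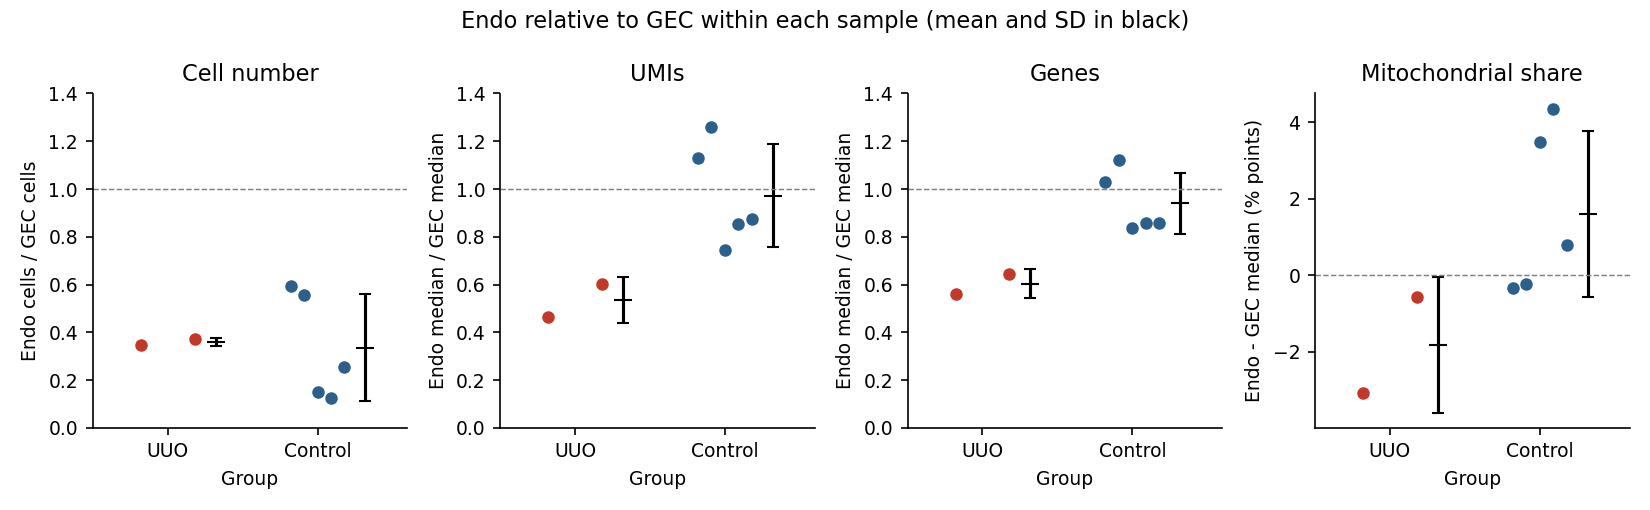
Endo relative to GEC in each sample, with Controls 3 and 4 as 1 sample, for cell number, median UMIs and median genes (ratios, dashed line at 1) and for the mitochondrial share (difference in percentage points, dashed line at 0), with mean and SD in black. UUO points lie below every Control point in UMIs, genes and mitochondrial share and inside the Control range in cell number.

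The mitochondrial share of a cell's UMIs is often read as a mark of cell condition or damage. Endo medians were 2.61% and 4.74% in UUO 1 and 2. In the Control samples they were 3.88%, 4.15%, 6.67%, 11.8% and 9.23%. Controls 5 and 6 were the highest, and UUO 2 lay above Controls 1 and 2. The difference was -3.46 percentage points (95% interval -9.49 to 2.57, limma adjusted p 0.992), and limma called 0% of 26 classes in either direction, with 0 at an unadjusted p under 0.05 and 0 by the exact test. Without Controls 1 and 2 it was -5.54 (adjusted p 0.718), and with the means of cells in place of medians it was -1.40 (adjusted p 0.952).

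Endo cells at or above 10% mitochondrial UMIs were 3 of 16 and 9 of 40 in UUO. In Controls 1 and 2 they were 4 of 60 and 10 of 89, and in Controls 3 to 6 they were 4 of 15, 9 of 24, 14 of 27 and 30 of 67. The share of such cells thus ran from 6.67% to 51.9% among the Control libraries, a range that holds both UUO values (18.8% and 22.5%). With these cells left out of every class, the Endo share of all cells differed by -1.68 (limma adjusted p 0.137), which did not pass.

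Against GEC cells of the same sample, the Endo median was lower by 3.07 and 0.556 percentage points in UUO 1 and 2. In the Control samples the Endo minus GEC difference was -0.32, -0.23, 3.48, 4.36 and 0.79. UUO and Control samples did not overlap, but only narrowly, and the mean difference between the groups (-3.42 points) had an exact permutation p of 0.0952 (adjusted 0.159). It was -4.68 without Controls 1 and 2 (exact p = 0.2), -2.17 without UUO 1 (exact p = 0.5) and -0.71 with only cells under 10% mitochondrial UMIs (exact p = 0.286). This measure was also chosen after its values were seen.

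**Figure D5:**
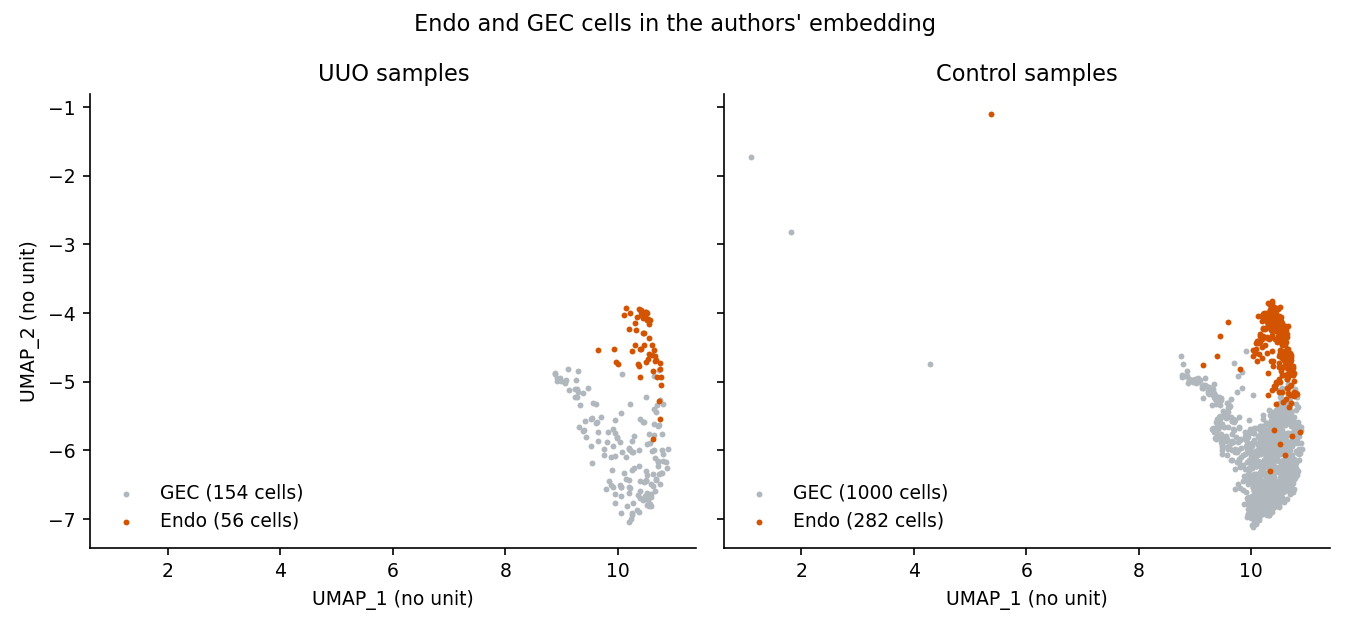
Endo cells (orange) and GEC cells (grey) in the authors' UMAP embedding, whose coordinates have no unit, for UUO samples (left) and Control samples (right). Endo cells of both groups occupy one tip of a shared body with GEC, and 1 Endo cell of Control 4 lies 6.04 from the class median.

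The embedding shows how the Endo class sits among the other classes with coordinates. It was made from the same cells as the classes, so it is given as a description. Coordinates were given for 25200 cells, none of them PT, so PT could be neither a neighbour nor a near class. Endo lay nearest to GEC, with 1.74 between the class medians, then to podocytes (Podo, the filtering epithelial cells of the glomerulus) at 3.50. Of the 15 nearest neighbours of each Endo cell, 90.6% were Endo and 8.40% GEC, and no other class with coordinates reached 1%. Endo cells formed a tight body: 325 of 338 (96.2%) lay within a distance of 1 from the class median, and 231 (68.3%) had only Endo neighbours.

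A minority of Endo cells lay among GEC cells. GEC was the most frequent neighbour class of 21 Endo cells, 3 of 56 in UUO and 18 of 282 in Control. By sample they were 1 of 16 and 2 of 40 in UUO 1 and 2. In the Control samples they were 3 of 60, 0 of 89, 8 of 39, 4 of 27 and 3 of 67. The 21 cells had a median of 706 UMIs, against 1082 in the 316 cells with mostly Endo neighbours. The remaining Endo cell, from Control 4, lay among cells of the class the authors named Profibrotic Tubules (chosen after its values were seen) and had 757 UMIs and 15.1% mitochondrial UMIs.

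The position of Endo cells was compared between the groups. Sample medians of UMAP_1 and UMAP_2 were 10.61 and -4.57 in UUO 1 and 10.45 and -4.41 in UUO 2, and ran from 10.40 to 10.52 and from -4.58 to -4.23 in the Control samples. The group means of these medians were 0.135 apart (exact permutation p = 0.333; 0.131 without Controls 1 and 2, p = 0.4), which is less than the median distance of an Endo cell from its class median (0.326). The median distance of cells from their own sample's median was 0.402 and 0.384 in UUO 1 and 2, within the 0.247 to 0.562 of the Control samples.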

How the data were processed

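Whole-kidney single-cell libraries were compared between 2 UUO and 6 Control samples, grouped by their titles. The tools were Seurat 4.0.1 and Cell Ranger 6.0.1 on build mm10, per the submitters' processing notes, which give neither their roles nor the cell filters, class calls and handling of doublets. UMIs and genes per cell are whole counts made by the authors and not normalized, per the file headers. Mitochondrial content is a deposited percent of UMIs, 1 value per cell. UMAP coordinates are a score without unit, deposited for 25200 cells (all outside PT). Cells in the table had 298 to 2998 genes and at most 50.0% mitochondrial UMIs. No column of values was left out (0). Gene-level values are not analysed here. The members, measures and alternatives were chosen with earlier results of these data known.

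Shares were put on the scale log2((n + 0.5)/(N - n + 0.5)) and fitted over all classes of the set with limma 3.58.1 (R 4.3.3), adjusted by Benjamini-Hochberg at a threshold of 0.05. For shares of all cells and of non-immune cells the variance prior took over fully, so these intervals do not measure Endo's own spread. Sample medians of UMIs and genes (log2) and of mitochondrial percent were fitted likewise, over the 26 classes that had 10 cells or more in 2 or more samples per group. Single values were tested by two-sided exact permutation of samples (scipy 1.17.1 for Fisher's test and binomial intervals). The fits of shares of all cells and of UMIs were run on simulated data, with each class drawn independently at its Control spread. That setting holds no split of libraries like that of Controls 1 and 2, so nothing is concluded from it here. Alternatives included edgeR 4.0.16 on cell numbers, other scales, cell filters and left-out samples. Leaving out Controls 1 and 2, and the gene and mitochondrial values relative to GEC, were added after seeing the data. Classes named were Endo, GEC, those with at least 1% of Endo's embedding neighbours and the 2 nearest by median position. UMI totals per library ran from 4375942 to 56755823. With 16 to 89 Endo cells per sample as counted, counting error alone is wide.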

Additional observations from a re-analysis of the deposited data

Results flagged for a closer look

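The UMIs of Endo cells relative to GEC cells differed between UUO and Control by -0.85 (log2, exact permutation p = 0.0476, the smallest possible). The exact p adjusted over the 5 measures whose main test was the exact one was 0.119. The ratio was lower in 2 of 2 UUO samples than in every Control sample as counted. This was singled out because the unadjusted test of the difference between the 2 endothelial classes reached 0.05. It does not pass the adjustment, and with 8 separate samples, where Control 3 (0.590) lies below UUO 2 (0.602), the exact p was 0.107.

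Genes detected in Endo cells relative to GEC cells differed likewise by -0.63 (exact permutation p = 0.0476, adjusted 0.119). Genes and UMIs of a cell move together, so these are not independent. Dixon's test marked no single Control sample in the 14 Endo measures examined, and it cannot mark a pair such as Controls 1 and 2, which lie close to each other.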

How the results depend on the processing

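The Endo share of all cells kept its direction in all alternatives run and lost its limma call with the libraries over 10000 cells (-0.79), without Controls 1 and 2 (-1.17), with only cells under 10% mitochondrial UMIs (-1.68), on the arcsine square root scale (-0.045), with edgeR on sample totals (-2.12), with centred log-ratios (-1.94) and in the exact test (-1.99); leaving out single samples gave -2.89 to -1.08. The share outside PT passed with the sample number as a replicate block (-2.87), with edgeR TMM scaling (-2.21) and with cells of at least 1000 UMIs (-2.91), and ran from -2.08 to -1.11 over left-out samples (passing without Control 5). The non-immune share passed with 8 separate samples (-1.73) and at 1000 UMIs (-3.11), turned sign with centred log-ratios (0.029), was small with edgeR TMM scaling (-0.22, adjusted p 0.853) and with cells under 10% mitochondrial UMIs (-0.84, adjusted p 0.532), and ran from -2.72 to -0.70 (passing without Control 5 or UUO 2). The Endo to GEC ratio ran from 0.11 to 0.67 over single left-out samples, was 0.73 with cells under 10% mitochondrial UMIs, 1.02 in the libraries over 10000 cells and 1.10 without Controls 1 and 2, and had the other sign under the replicate block (-0.66) and at 1000 UMIs (-0.86). Endo UMIs relative to GEC did not reach 0.05 with 8 separate samples (-0.78), in the libraries over 10000 cells (-0.71), without Controls 3 and 4 (-0.94) or without Controls 1 and 2 (-0.63), and ran from -1.03 to -0.66 over left-out samples; of these sample sets, only the 8 separate samples and those without Control 3 or Control 4 could have reached 0.05. Ranges over left-out samples were -0.81 to -0.09 for UMIs, -0.67 to -0.10 for genes, -4.53 to -2.31 points for mitochondrial percent and 0.036 to 0.246 for embedding position, and none of these 4 passed under any alternative. Mitochondrial percent was smaller with the replicate block (-0.34), under 10% mitochondrial UMIs (-1.30) and with sample means (-1.40). Only numbers 1 and 2 occur in both groups, so block differences set UUO against Controls 1 and 2 alone, which stood apart. The labels state no such pairs. By limma over classes, Endo relative to GEC was then -1.17 in UMIs (adjusted p 0.00225) and -0.84 in genes (adjusted p 0.0483). In mitochondrial percent it was -1.53 points (adjusted p 0.898). These cannot be set beside the exact test's adjusted 0.119. The block changed no call for shares of all or non-immune cells, or for UMIs, genes and mitochondrial percent per cell. The causes were not tested. A fit without UUO 1 or UUO 2, and the minimum of 20 cells, assume that the lone UUO sample varies like the others. Control 3 (15 cells) and UUO 1 (16 cells) had the fewest Endo cells.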
